A study of Mus musculus with 8 samples.

Results

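Foxo1, the insulin-restrained forkhead transcription factor, and 9 genes of the growth-arrest and growth-restraint programme tied to it were followed in mouse gastrocnemius, a calf muscle. The 10 genes were chosen by symbol as Foxo1, Cdkn1a, Gadd45a, Klf10, Eif4ebp1, Sesn1, Ddit4, Insr, Irs2 and Txnip. The choice was made with earlier results of these data known, so the counts over the 10 genes below are descriptive. All 10 were found among the 23282 rows of each count table, and all 10 were among the 13174 genes with enough reads to be tested.

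The study counted reads from the 3' ends of messenger RNA in the muscle of C57BL/6 mice and asked, per its title, whether a Paeonia lactiflora extract eases the muscle wasting that goes with cancer. Mice of the Normal group (n = 3 libraries) got 100 µl of saline under the skin and later 200 µl of water by mouth. Control mice (n = 3) carried a tumour grown for 2 weeks from injected Lewis lung carcinoma cells, a syngeneic mouse lung cancer line, and were then given the same water. RP mice (n = 2) carried the same tumour and were dosed for 2 weeks, each day, with 100 mg/kg of the plant extracted in 30% ethanol. The labels list an age of 4 weeks without saying at which step, and they do not say whether each library is 1 animal, and p-values therefore reflect how far these libraries differ, which may be technical.

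The sample titles and the tables go against each other for 6 of the 8 libraries. Each Normal-titled library has a table that carries the name Control, and each Control-titled library has one that carries the name Normal. Groups here follow the titles, and the libraries are called Normal-titled, Control-titled and RP. If the table names hold instead, the sign of each Control against Normal difference below turns round, and the comparison of RP with Control trades places with that of RP with Normal.

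Counts summed to between 9528011 and 12333767 per library. All 12 skeletal muscle markers were detected, with a summed level of 90817 to 147005 CPM (counts scaled to the library total). Blood markers moved with the titled groups. The summed level of 13 neutrophil markers was 972 to 1995 CPM in the Normal-titled libraries, 16.4 to 28.7 CPM in the Control-titled and 41.4 and 510.3 CPM in the RP libraries, and Ltf, Elane and Mpo were at 0 in every Control-titled library. The 11 erythroid markers summed to 43517 to 237133 CPM, 12869 to 16268 CPM, and 8975 and 39953 CPM in the same order. In this bulk tissue, fewer cells of a type and less RNA per cell cannot be told apart.

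FoxO proteins are transcription factors that insulin and insulin-like growth factor signalling keeps out of the nucleus through Akt. When that signal weakens, as in fasting or disuse, FoxO proteins enter the nucleus and switch on genes that stop the cell cycle, slow translation, raise insulin sensitivity and, in muscle, drive protein breakdown through ubiquitin ligases encoded by Fbxo32, known as atrogin-1, and Trim63, known as MuRF1. Several of the same genes also answer to p53, to glucocorticoids or to low energy, so their RNA levels do not read out FoxO activity alone.

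Foxo1 lies on the plus strand at chr3:52268337-52350109 (RefSeq annotation of build GRCm38.p6, which is mm10). Its level was 62.1, 54.1 and 81.5 CPM in the 3 Normal-titled libraries, 30.7, 40.4 and 46.6 CPM in the Control-titled and 68.6 and 53.3 CPM in the RP libraries. Every Control-titled library was lower than every other library, while the RP libraries overlapped the Normal-titled ones. The mean was 65.9 ± 14.1 CPM (SD, n = 3) in Normal-titled and 39.2 ± 8.0 CPM (SD, n = 3) in Control-titled libraries. Foxo1 was 1.68-fold lower in the Control-titled group (log2 change -0.75 ± 0.194 SE, adjusted p = 0.0269, edgeR quasi-likelihood test with Benjamini-Hochberg adjustment over all tested genes, as for every adjusted p below unless another tool is named). The call was lost without Normal 3 (adjusted p = 0.0620), Control 1 (0.137) or Control 2 (0.0831), and with the log2 level of the haemoglobin gene Hba-a1 as a covariate (log2 change -0.65, 0.292). The last 300 bases of the annotated Foxo1 transcript also share stretches of at least 50 bases at 90% identity or more with transcripts of 147 other genes, and how the authors' alignment treated such reads is not given in the sources used here.

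The next members act on the cell cycle. Cdkn1a encodes p21, an inhibitor of cyclin-dependent kinases and a classical target of both FoxO proteins and p53, and lies on the plus strand at chr17:29090979-29100722. It had the lowest adjusted p among the 10 genes in the Control against Normal comparison. The Normal-titled libraries held 111, 79.5 and 119 CPM, the Control-titled 12.1, 22.8 and 19.6 CPM and the RP libraries 28.1 and 25.2 CPM. All 3 groups were separate, with RP between the other two and close to the Control-titled libraries. Its mean was 103 ± 20.9 CPM (SD, n = 3) in Normal-titled and 18.2 ± 5.51 CPM (SD, n = 3) in Control-titled libraries, which was 5.68-fold lower (log2 change -2.51 ± 0.226 SE, adjusted p = 3.2e-05). This call held under all 18 alternative settings, with a log2 change between -2.69 and -2.28.

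The bases upstream of an annotated Cdkn1a start are shown because Cdkn1a moved most and a p53 element is a known feature of this promoter (RefSeq, GRCm38.p6, chr17:29090729-29090978, plus strand, 5′ to 3′). Capitals mark a pair of adjoining p53 decamers found with 1 mismatch allowed, a search added after the sequence had been read.
Cdkn1a: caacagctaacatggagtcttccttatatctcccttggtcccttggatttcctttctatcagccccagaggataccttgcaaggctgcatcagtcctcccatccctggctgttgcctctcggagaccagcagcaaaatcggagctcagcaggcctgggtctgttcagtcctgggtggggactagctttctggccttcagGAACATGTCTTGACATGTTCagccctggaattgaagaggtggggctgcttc
The pair begins 51 bases before that start and carries 1 mismatch. Another Cdkn1a window, for a start further downstream (chr17:29093519-29093818), held no such pair. Such a pair, searched on both strands, was present in 29 of 32851 promoter windows of 300 bases (0.0883%), and Cdkn1a was the 1 member among the 7 with a window in the table. The match is a description of the letters and says nothing on binding in these muscles.

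Gadd45a, a small stress protein that holds cells before mitosis, lies on the minus strand at chr6:67035096-67037407. Its level was 47.9, 48.3 and 37.4 CPM in Normal-titled, 24.2, 25.9 and 27.0 CPM in Control-titled and 27.2 and 30.8 CPM in RP libraries. The 3 groups did not overlap, although the lower RP library was almost level with the highest Control-titled one. Gadd45a was 1.73-fold lower in the Control-titled group (44.5 ± 6.20 against 25.7 ± 1.44 CPM, SD, n = 3 each, log2 change -0.79 ± 0.152 SE, adjusted p = 0.00534). With Hba-a1 as a covariate the log2 change was -0.93 and did not pass (adjusted p = 0.0646). Gadd45a overlaps E230016M11Rik, which had 0 to 9 counts per library.

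Klf10, a zinc finger factor first described as an early gene of TGF-β signalling that restrains proliferation, lies on the minus strand at chr15:38291464-38300711. It was measured at 56.2, 44.1 and 62.0 CPM in Normal-titled and 30.0, 27.9 and 37.9 CPM in Control-titled libraries, which did not overlap. The RP libraries were far apart, at 36.3 and 61.8 CPM, one among the Control-titled and one among the Normal-titled libraries. Klf10 was 1.69-fold lower in the Control-titled group (54.1 ± 9.13 against 31.9 ± 5.26 CPM, SD, n = 3 each, log2 change -0.76 ± 0.207 SE, adjusted p = 0.0333). The call was lost without Normal 3 (adjusted p = 0.0643), Control 1 (0.131), Control 2 (0.135) or Control 3 (0.0536), and with Hba-a1 as a covariate, where the log2 change was -0.32 (0.601).

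**Figure D1:**
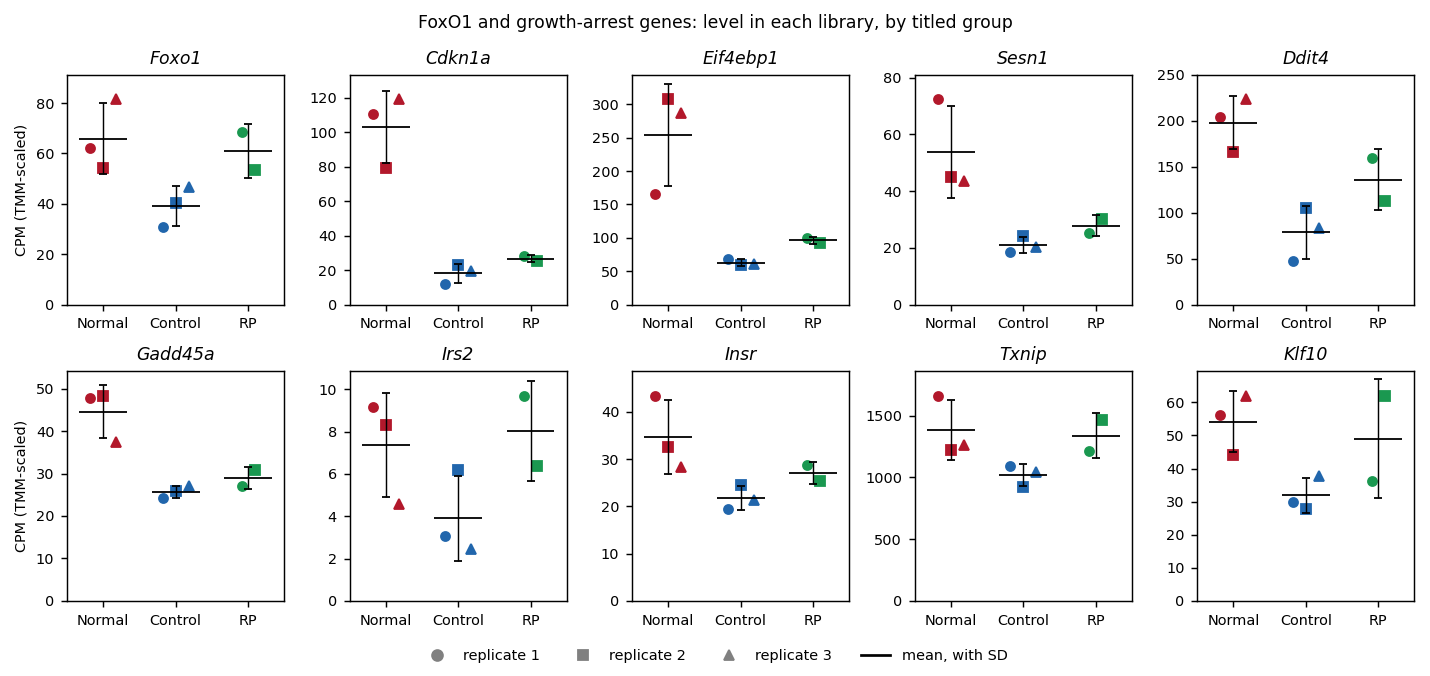
Levels of the 10 genes in CPM (vertical axes, linear, from 0) in each library, with a symbol per library, grouped as Normal-titled, Control-titled and RP, and lines for the mean and SD of each group. In 9 of the 10 panels every Control-titled symbol is below every Normal-titled one, Irs2 being the exception, and Cdkn1a shows the widest fold gap.

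Another set of members restrains translation and the growth kinase mTORC1. Eif4ebp1 encodes 4E-BP1, which binds the cap-binding protein eIF4E and blocks translation until mTORC1 phosphorylates it, and lies on the plus strand at chr8:27260327-27275656. It was at 166, 308 and 287 CPM in Normal-titled, 68.5, 59.4 and 60.7 CPM in Control-titled and 99.5 and 92.5 CPM in RP libraries. The Control-titled and RP libraries were each tight, and RP lay between the other groups without overlap. Eif4ebp1 was 4.03-fold lower in the Control-titled group (254 ± 76.6 against 62.9 ± 4.92 CPM, SD, n = 3 each, log2 change -2.01 ± 0.208 SE, adjusted p = 7.8e-05), and this call held under all 18 alternatives.

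Sesn1, a sestrin that relays low leucine and stress to mTORC1 through the GATOR complexes and a target of both p53 and FoxO, lies on the plus strand at chr10:41810574-41908436. Its level was 72.4, 44.9 and 43.7 CPM in Normal-titled, 18.7, 24.1 and 20.4 CPM in Control-titled and 25.1 and 30.3 CPM in RP libraries. Normal 1 stood above the other Normal-titled libraries, and RP lay just above the highest Control-titled library. Sesn1 was 2.55-fold lower in the Control-titled group (53.7 ± 16.3 against 21.1 ± 2.76 CPM, SD, n = 3 each, log2 change -1.35 ± 0.205 SE, adjusted p = 0.00125). It passed under all 18 alternatives.

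Ddit4 encodes REDD1, an inhibitor of mTORC1 that glucocorticoids, low oxygen and low energy raise in muscle, and lies on the minus strand at chr10:59949675-59951770. Its level was 204, 166 and 224 CPM in Normal-titled, 47.4, 105 and 83.3 CPM in Control-titled and 159 and 112 CPM in RP libraries. The Control-titled libraries varied more for Ddit4 than for any member but Irs2, with Control 1 lowest, yet all were below both RP libraries, and RP in turn was below every Normal-titled library. Ddit4 was 2.53-fold lower in the Control-titled group (198 ± 29.1 against 78.5 ± 29.0 CPM, SD, n = 3 each, log2 change -1.34 ± 0.248 SE, adjusted p = 0.00451). With Hba-a1 as a covariate the log2 change was -1.40 and missed the threshold (adjusted p = 0.0834).

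The third set feeds the insulin signal itself. Insr, the insulin receptor, lies on the minus strand at chr8:3150922-3279649, and FoxO proteins raise it as part of a known feedback loop. Its level was 43.5, 32.5 and 28.2 CPM in Normal-titled, 19.5, 24.6 and 21.3 CPM in Control-titled and 28.7 and 25.4 CPM in RP libraries. The Normal-titled and Control-titled libraries were separate by a narrow margin, and RP overlapped the Normal-titled ones. Insr was 1.60-fold lower in the Control-titled group (34.8 ± 7.84 against 21.8 ± 2.59 CPM, SD, n = 3 each, log2 change -0.67 ± 0.181 SE, adjusted p = 0.0316). The call was lost without Normal 1 (adjusted p = 0.0609), Normal 2 (0.0636), Control 1 (0.144), Control 2 (0.0536) or Control 3 (0.117), while with Hba-a1 as a covariate it passed with a log2 change of -1.10.

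Irs2, an adaptor that links the insulin receptor to PI3-kinase and a feedback target of FoxO, lies on the minus strand at chr8:10984681-11008929. It was the least covered member, with 27 to 102 counts per library. Its level was 9.18, 8.33 and 4.56 CPM in Normal-titled, 3.09, 6.20 and 2.44 CPM in Control-titled and 9.70 and 6.38 CPM in RP libraries. Control 2 was above Normal 3, so the groups overlapped. The Control against Normal difference did not pass (log2 change -0.92 ± 0.372 SE, adjusted p = 0.135), except without Control 2 (log2 change -1.39, adjusted p = 0.0477).

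Txnip binds thioredoxin and limits glucose uptake, and its gene lies on the plus strand at chr3:96557957-96561857. With 9206 to 18487 counts per library it was the most deeply covered member, yet its estimates were among the smallest. Its level was 1663, 1225 and 1264 CPM in Normal-titled, 1090.5, 921 and 1047 CPM in Control-titled and 1213 and 1467 CPM in RP libraries. The Control-titled libraries were all below the rest. The difference did not pass (log2 change -0.44 ± 0.163 SE, adjusted p = 0.104), although DESeq2 gave an adjusted p of 0.0456. Txnip overlaps Gm15441, which had 5 to 22 counts per library.

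Sequences near 3 starts are shown because they hold the forkhead words GTAAACA or CAAAACA, which FoxO proteins can bind, or the E-box CACGTG (RefSeq, GRCm38.p6, each written 5′ to 3′ on the strand of its gene). Capitals mark the matched letters. The windows cover chr10:41810585-41810614 on the plus strand for Sesn1, chr8:11008930-11009179 on the minus strand for Irs2 and chr3:96557707-96557956 on the plus strand for Txnip.
Sesn1: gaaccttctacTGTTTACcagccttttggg
Irs2: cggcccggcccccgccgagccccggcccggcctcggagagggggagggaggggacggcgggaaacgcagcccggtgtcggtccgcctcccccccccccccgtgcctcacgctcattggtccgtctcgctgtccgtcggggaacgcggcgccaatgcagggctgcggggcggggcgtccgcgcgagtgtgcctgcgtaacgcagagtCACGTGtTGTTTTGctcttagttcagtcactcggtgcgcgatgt
Txnip: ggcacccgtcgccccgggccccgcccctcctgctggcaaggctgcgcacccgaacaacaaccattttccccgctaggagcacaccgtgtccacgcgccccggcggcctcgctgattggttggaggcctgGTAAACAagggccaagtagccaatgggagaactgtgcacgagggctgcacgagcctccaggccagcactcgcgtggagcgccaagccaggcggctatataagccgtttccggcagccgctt
In Txnip, GTAAACA begins 121 bases before the start. In Sesn1 the same word lies 22 bases after the start, on the opposite strand, where it reads TGTTTAC. Another Sesn1 window, for a start further downstream (chr10:41887189-41887488), held none of the words searched. In Irs2, CACGTG begins 44 bases and CAAAACA, read on the opposite strand, 37 bases before the start. The promoter table held windows of 300 bases for 7 of the 10 members (9 windows), and both strands were searched. GTAAACA was in the windows of 2 of the 7 and in 3.65% of all 32851 windows, CAAAACA in 1 of 7 and in 6.28%, and CACGTG in 1 of 7 and in 7.15%. The word AGAACA, part of the glucocorticoid response element, was in none of the 7 and in 19% of all windows. Of the 3 genes with a forkhead word, Sesn1 passed the Control against Normal test and Irs2 and Txnip did not.

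Counted together, 8 of the 10 genes were lower in the Control-titled group, in a comparison where 5.45% of all tested genes were lower and 4.99% higher. None of the 10 was higher. Their median log2 change was -0.86, with a range of -2.51 to -0.44, beside a median of 0.00043 over all tested genes. The Control-titled libraries lay wholly below the Normal-titled ones for 9 members, against 14.7% of all tested genes. With Hba-a1 as a covariate 4 members passed, namely Cdkn1a, Eif4ebp1, Sesn1 and Insr. Without Control 1 there were 5.

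Blood markers fell in the same direction as the members. Of the neutrophil markers, 9 of the 10 tested were lower in the Control-titled libraries, and of the erythroid markers 10 of 11. Of the satellite cell markers (8 genes) 2 were lower (Myod1 and Myog) and none higher, with a median log2 change of 0.11. Their sum was lower in every Control-titled library, at 52.1 to 57.2 CPM against 64.2 to 94.4 CPM in Normal-titled libraries. Fibroblast and tendon markers summed to more, at 9821 to 10731 against 5644 to 9464 CPM, and 7 of 12 were higher and none lower. Haemoglobin genes held 4.57 to 19.7% of the counts in Normal-titled and 1.41 to 1.61% in Control-titled libraries. The Hba-a1 covariate thus largely follows the titles and cannot separate a blood share from the group. A call lost with it can reflect a larger error as well as a smaller change. The part of these cell types in the members' differences was not tested.

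**Figure D2:**
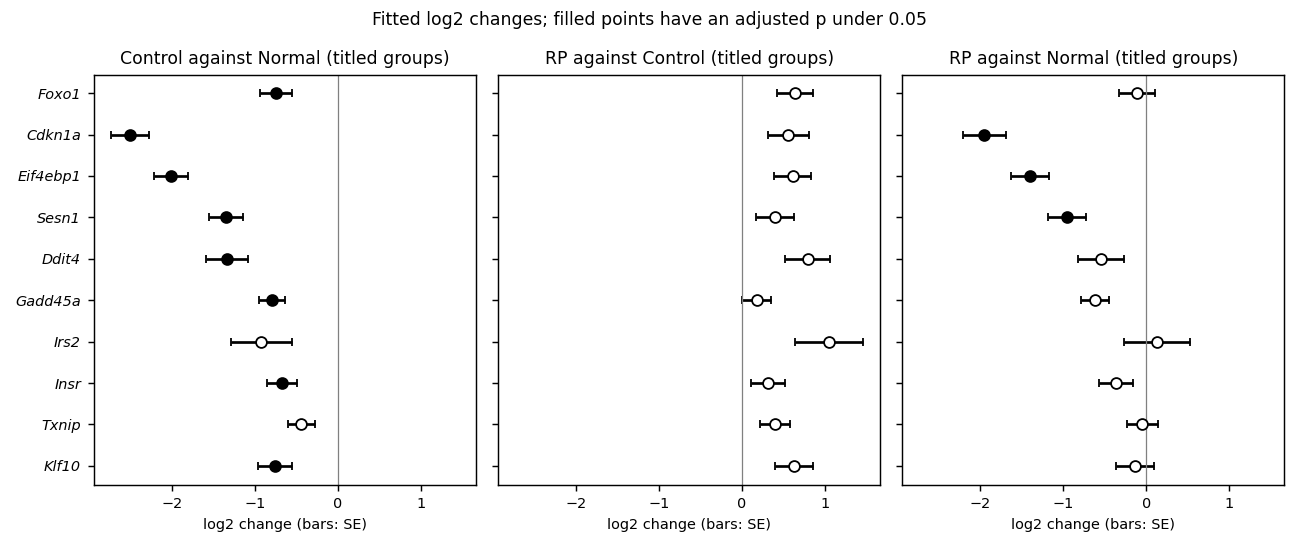
Log2 change of each of the 10 genes (one row per gene) in the 3 comparisons, with points for the estimate, bars for 1 SE and filled symbols for an adjusted p under 0.05. All 10 estimates lie below 0 for Control against Normal and above 0 for RP against Control, and for RP against Normal they spread from -1.95 for Cdkn1a to 0.12 for Irs2.

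Paralogues of the members were read in the same comparison. Foxo4, the other FoxO factor with a clear level, was at 57.3 to 96.0 CPM in Normal-titled and 73.3 to 77.7 CPM in the Control-titled group (log2 change -0.02 ± 0.171 SE, adjusted p = 0.961). Foxo6 rose 4.65-fold in the Control-titled group (log2 change 2.22 ± 0.376 SE, adjusted p = 0.00264), from 0.900, 3.25 and 3.49 CPM to 10.1, 14.9 and 10.6 CPM, a call that held under all 18 alternatives. Foxo3 had 0 to 5 counts per library and was not tested. The annotation behind the counts is not given, so they do not show how much Foxo3 the muscle expresses. Foxk1, a forkhead factor outside the FoxO branch, was lower (log2 change -0.74 ± 0.187 SE, adjusted p = 0.0228), but not without Normal 2 (0.0699), Control 1 (0.0792), Control 2 (0.0935) or Control 3 (0.0889).

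Among the cyclin-dependent kinase inhibitors, Cdkn1b (p27), which FoxO proteins are known to raise, was at 101 to 140.4 CPM and 96.3 to 114 CPM (adjusted p = 0.609). Cdkn1c (p57), an inhibitor expressed in differentiating muscle, rose from 65.1, 60.0 and 65.6 CPM to 99.6, 117 and 105 CPM (log2 change 0.76 ± 0.143 SE, adjusted p = 0.00492), and with Hba-a1 as a covariate it did not pass (0.62, 0.160). So p21 was lower, p57 higher, and p27 overlapped between the same libraries.

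For the translation brakes, Eif4ebp2 (log2 change -0.45, adjusted p = 0.275) and Eif4ebp3 (-0.19, 0.669) did not pass. Sesn3 was at 1.44 to 1.75 CPM in Normal-titled and 2.20 to 3.07 CPM in Control-titled libraries, the reverse order to Sesn1, without passing (log2 change 0.72, adjusted p = 0.249). Sesn2 had 0 to 3 counts per library and was not tested. Ddit4l, the muscle relative of Ddit4, overlapped between groups at 254 to 540 and 359 to 540 CPM (adjusted p = 0.535).

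Of the other paralogues, Gadd45b (log2 change 0.10, adjusted p = 0.801) and Gadd45g (0.42, 0.282) did not pass, although Gadd45g did without Normal 3 (adjusted p = 0.0284). Irs1, the other main insulin receptor substrate of muscle, did not pass either (log2 change 0.32, adjusted p = 0.227). Igf1r, the receptor closest to Insr, came near the threshold (log2 change -0.56 ± 0.173 SE, adjusted p = 0.0545) and passed with no low-count filter (0.0235), with DESeq2 (0.0305) and without Normal 3 (0.0442). Klf9 (-0.24, 0.415) and Klf15 (-0.21, 0.477), both glucocorticoid-responsive factors, did not pass.

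The log2 ratio of a member to its relative in the same library largely cancels library scaling. Over 8 such pairs, the ratio was lower in every Control-titled than in every Normal-titled library for 7. Most of these members were already wholly lower in the Control-titled libraries, so this count is not separate support. The relative's own change also enters each ratio, and no share over other gene pairs was computed. The mean difference (Control minus Normal, log2) was -0.76 for Foxo1 to Foxo4, -2.39 for Cdkn1a to Cdkn1b, -1.52 for Eif4ebp1 to Eif4ebp2 and -1.96 for Sesn1 to Sesn3. It was -1.24 for Gadd45a to Gadd45g, -1.23 for Irs2 to Irs1 and -1.70 for Ddit4 to Ddit4l. The pair that overlapped was Insr to Igf1r (-0.096, exact permutation p = 0.6). With 20 ways to split 3 against 3 libraries, 0.1 is the smallest p this 2-sided exact permutation test allows, and the 7 pairs had it (0.114 after adjustment over 8 pairs), so no pair could reach 0.05.

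**Figure D3:**
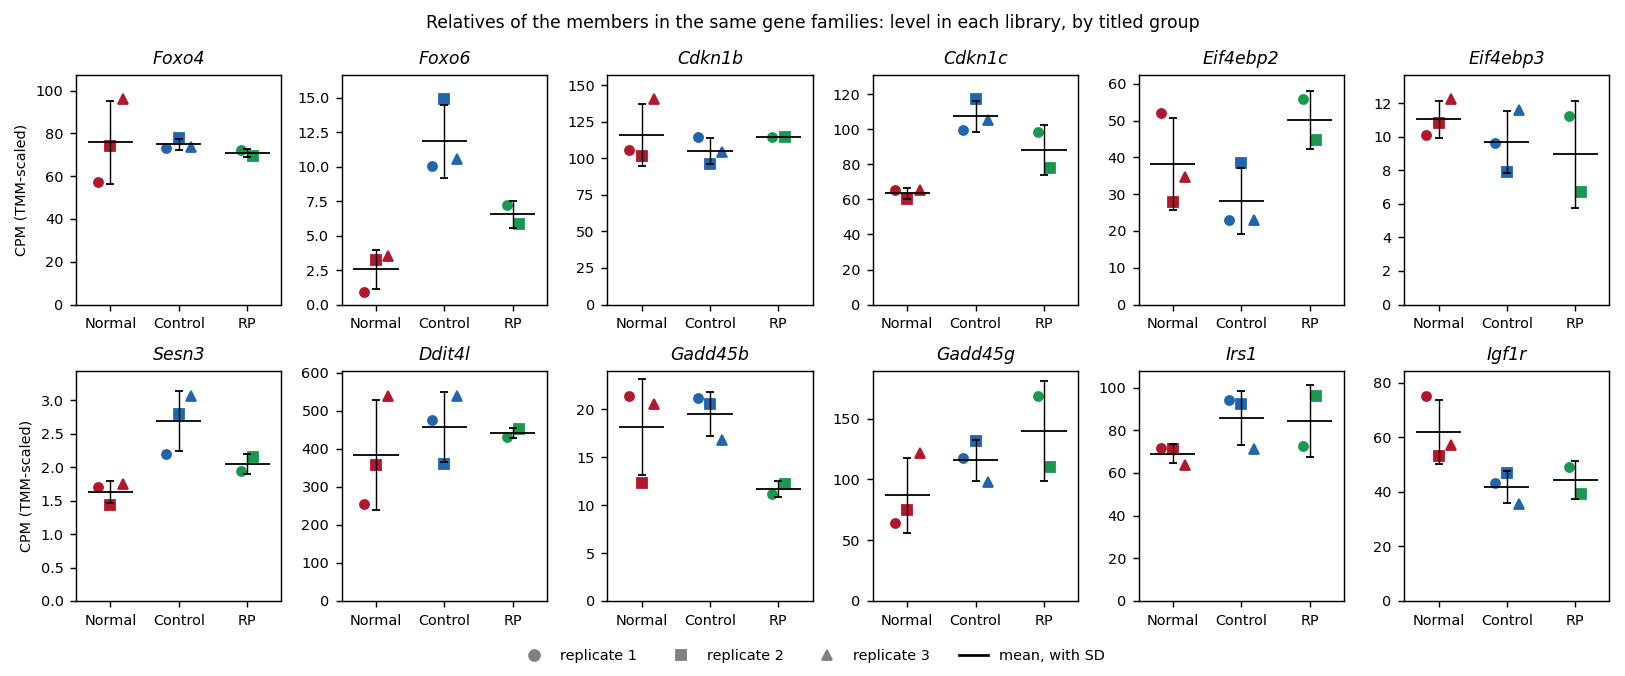
Levels in CPM (vertical axes, from 0) of 12 relatives of the members in each library, grouped by title, with symbols for the libraries and lines for the group mean and SD. Foxo4 and Cdkn1b overlap between Normal-titled and Control-titled libraries, Foxo6 and Cdkn1c are higher in the Control-titled ones, and Sesn3 runs in the same direction as those without passing the test.

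The wider pathway was read from lists of 169 further genes, of which 163 were tested. In the Control-titled group 9 of the 163 were higher and 24 lower, or 20.2% called beside 10.4% of all tested genes. Their median log2 change was -0.16. Only Fbxo32, Trim63, Foxo6 and Ptpn1 of the 163 passed under all 18 alternatives.

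Of the listed FoxO targets of muscle wasting, 8 of 20 were lower and 1 higher (Fbxo21), with a median of -0.44. Fbxo32 fell 6.91-fold, from 719, 1248 and 1463 CPM to 174, 172 and 151 CPM (log2 change -2.79 ± 0.227 SE, adjusted p = 2.5e-05). Trim63 fell 5.15-fold, from 1222, 1912 and 1098 CPM to 278, 308 and 237 CPM (log2 change -2.36 ± 0.211 SE, adjusted p = 3.2e-05). Angptl4, a secreted inhibitor of lipoprotein lipase, was also lower (log2 change -1.90 ± 0.485 SE, adjusted p = 0.0247). That call was lost with limma-voom (0.0742), without Normal 1 and without any 1 Control-titled library (0.0947 without Control 2). The mitophagy receptors Bnip3 and Bnip3l, the autophagy proteins Gabarapl1 and Map1lc3b, and Cat (catalase) made up the rest. This list was chosen with earlier results of these data known, so its values are descriptive and not independent evidence of a direction.

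Among regulators of FoxO, 1 of 28 passed, the mitochondrial deacetylase Sirt3 (higher, log2 change 0.75 ± 0.187 SE, adjusted p = 0.0230), which was lost without Normal 3 or any 1 Control-titled library (0.0867 without Control 3). The kinases that inactivate FoxO overlapped between the groups. Akt1 (log2 change -0.27, adjusted p = 0.371), Akt2 (-0.25, 0.398) and Sgk1 (0.13, 0.733) did not pass. Without Normal 1, Akt1 (-0.46, 0.0278) and Akt2 (-0.44, 0.0357) passed as lower. Among the other insulin signalling genes 3 of 23 were higher and 4 lower, with a median of -0.01. Grb14, an adaptor that inhibits the insulin receptor, rose from 7.02, 4.40 and 4.17 CPM to 15.5, 14.2 and 15.5 CPM (log2 change 1.53 ± 0.225 SE, adjusted p = 0.00104, and 1.03 with an adjusted p of 0.119 with Hba-a1 as a covariate). Tbc1d4, the Akt substrate that releases glucose transporters, fell (log2 change -1.06 ± 0.245 SE, adjusted p = 0.0150), as did Pik3r1, a regulatory subunit of PI3-kinase (-0.95 ± 0.228 SE, 0.0184). Tbc1d4 was lost without Normal 2 (0.0704), Control 1 or Control 3 (0.0755) and Pik3r1 without Control 1 (0.0696), Control 2 or Control 3 (0.0782).

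None of the 16 other restraints of mTORC1 passed, so Eif4ebp1, Sesn1 and Ddit4 were the 3 of that list that did. Of 21 further growth-arrest genes, Cdkn1c and Ccng1 were higher and Tob2, an antiproliferative partner of the deadenylase complex, was lower (log2 change -0.99 ± 0.179 SE, adjusted p = 0.00392, and -0.92 with an adjusted p of 0.106 with Hba-a1 as a covariate). Of 19 further p53 targets, 2 were higher and 3 lower, with a median of -0.16. Ccng1, cyclin G1, rose from 334, 295 and 318 CPM to 454, 469 and 450 CPM (log2 change 0.54 ± 0.131 SE, adjusted p = 0.0198), the opposite direction to Cdkn1a, and was lost without Normal 2 or any 1 Control-titled library (0.0894 without Control 1). Eda2r, a p53-induced receptor of the tumour necrosis factor family, fell (log2 change -1.73 ± 0.330 SE, adjusted p = 0.00515, and -0.62 with an adjusted p of 0.508 with Hba-a1 as a covariate). Trp53inp1, which helps p53 toward cell death, was lower as well (-0.91 ± 0.233 SE, 0.0253), but not without Normal 1 (0.0557) or any 1 Control-titled library (0.0900 without Control 2). Trp53 itself was at 6.32 to 10.2 CPM and 7.59 to 8.30 CPM (adjusted p = 0.944), and Mdm2, which degrades p53, was at 55.4 to 79.4 and 59.3 to 60.4 CPM (0.387).

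Among relatives and partners of Txnip, 3 of 11 were lower and none higher. Arrdc2 (log2 change -1.28 ± 0.289 SE, adjusted p = 0.0134) and Arrdc3 (-0.81 ± 0.224 SE, 0.0368) are arrestin-domain proteins like Txnip, and Mlxip (-0.53 ± 0.145 SE, 0.0328) is the glucose-sensing factor that drives Txnip. The closest relative, Arrdc4, did not pass (-0.03, 0.944). Arrdc2 was lost without Control 1 (0.0714) or Control 3 (0.0755), Arrdc3 without Normal 1 (0.0834), Control 1 (0.167) or Control 3, and Mlxip without Normal 2 (0.0518), Normal 3 or any 1 Control-titled library (0.130 without Control 2). Arrdc3 was also lost when only the libraries of the 2 groups were fitted (0.0512). None of 12 other Klf genes passed. Of 13 further early TGF-β genes 4 were lower, among them Ctgf (log2 change -1.75 ± 0.434 SE, adjusted p = 0.0213) and Smad7 (-0.81 ± 0.227 SE, 0.0375). Ctgf was lost without any 1 Control-titled library (0.0944 without Control 1), and Smad7 without any 1 Normal-titled library (0.0537 without Normal 1), Control 1 (0.170) or Control 2. With Hba-a1 as a covariate further calls were lost, some with a smaller and some with a larger log2 change than before. The log2 change was -0.23 for Foxk1 (adjusted p = 0.666), 0.63 for Sirt3 (0.300), -0.43 for Tbc1d4 (0.592), 0.49 for Ccng1 (0.183) and -0.67 for Arrdc2 (0.455). It was -1.30 for Trp53inp1 (0.0695), -1.11 for Arrdc3 (0.0990) and -0.89 for Smad7 (0.224).

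If the titles hold, RP against Control compares tumour-bearing mice with and without the extract. Every member had a higher mean in the RP libraries, but none passed the test, in a comparison where 0.175% of all tested genes passed, 0.144% higher and 0.0304% lower. DESeq2 and limma-voom also called none of the 10, and 7 had an unadjusted p under 0.05, as did 8.98% of all tested genes. Their median log2 change was 0.58, with a range of 0.17 to 1.05, beside -0.0038 over all genes. The RP libraries lay wholly above the Control-titled ones for 9 members, against 15.3% of all tested genes.

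Foxo1 was at 61.0 ± 10.9 CPM (SD, n = 2) in RP against 39.2 CPM in the Control-titled group (log2 change 0.64 ± 0.215 SE, adjusted p = 0.366). Cdkn1a reached 26.7 ± 2.08 CPM (0.56 ± 0.247 SE, 0.544). Gadd45a had the smallest difference of the 10, at 29.0 ± 2.61 CPM (0.17 ± 0.171 SE, 0.824). Both cell-cycle genes thus stood above every Control-titled library by a small margin. Klf10, at 49.1 ± 18.02 CPM, was the 1 member whose RP libraries overlapped the Control-titled ones (0.62 ± 0.229 SE, 0.419).

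The translation brakes were higher in both RP libraries than in every Control-titled library, without passing. Eif4ebp1 was at 96.0 ± 4.90 CPM (log2 change 0.61 ± 0.223 SE, adjusted p = 0.413). Sesn1 was at 27.7 ± 3.69 CPM (0.40 ± 0.229 SE, 0.652) and Ddit4, which varied more, at 136 ± 33.4 CPM (0.79 ± 0.270 SE, 0.373). Eif4ebp1 passed when only the libraries of those groups were fitted (0.0485) and Ddit4 with no low-count filter (0.0369). On the insulin side, the thinly covered Irs2 had the largest estimate and the largest error of the 10, at 8.04 ± 2.35 CPM (1.05 ± 0.409 SE, 0.466). Insr was at 27.0 ± 2.31 CPM (0.31 ± 0.203 SE, 0.703). Txnip, the most deeply covered, was at 1340.0 ± 179 CPM (0.39 ± 0.181 SE, 0.552).

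Of the 163 other listed genes 1 passed in RP against Control (0.613%), and 18 had an unadjusted p under 0.05, beside the 8.98% of all tested genes given above. It was Trim63, at 1188 and 1021 CPM in the RP libraries against 237 to 308 CPM in the Control-titled ones. Its log2 change was 2.01 ± 0.223 SE (adjusted p = 0.00173), a call that held under all 18 alternatives. Fbxo32, its partner in muscle protein breakdown, was at 400 and 404 CPM against 151 to 174 CPM and fell just short (log2 change 1.28 ± 0.234 SE, adjusted p = 0.0512). The neutrophil and erythroid sums also differed between the RP libraries themselves, RP 2 being the higher in both, and their part in these differences was not tested.

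RP against Normal shares its Normal-titled libraries with the first comparison and its RP libraries with the second, so the values are given side by side and not as separate support. Here 3 of the 10 genes were lower and none higher, beside 0.835% of all tested genes lower and 1.67% higher. Without RP 1, and likewise without RP 2, 1 was lower, and without Normal 2 or any 1 Control-titled library 2 were. The median log2 change of the 10 was -0.45, against -0.04 for all genes. The RP libraries lay wholly below the Normal-titled ones for 5 members, against 15.4% of all tested genes.

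Cdkn1a was 3.87-fold lower in RP than in the Normal-titled group (log2 change -1.95 ± 0.256 SE, adjusted p = 0.00143), a call that held under all 18 alternatives. Eif4ebp1 was 2.64-fold lower (-1.40 ± 0.234 SE, 0.00692), but not without RP 1 (0.0943), without RP 2 (0.0587) or with Hba-a1 as a covariate (-1.03, 0.141). Sesn1 was 1.94-fold lower (-0.95 ± 0.231 SE, 0.0485), a call lost in 12 of the 18 alternatives, up to an adjusted p of 0.348 without RP 1. Those without Normal 2 (0.0718), Control 1 (0.0781), Control 2 (0.0757), Control 3 (0.0885) and RP 2 (0.111) were among them. Gadd45a (-0.62 ± 0.172 SE, 0.0808) and Ddit4 (-0.54 ± 0.276 SE, 0.335) were below every Normal-titled library without passing, although Gadd45a passed with DESeq2 (0.0465) and without Normal 3 (0.0296).

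The other members overlapped with the Normal-titled libraries. The log2 change was -0.11 ± 0.216 SE for Foxo1 (adjusted p = 0.850), -0.36 ± 0.203 SE for Insr (0.388), -0.14 ± 0.230 SE for Klf10 (0.815), -0.047 ± 0.182 SE for Txnip (0.933) and 0.12 ± 0.399 SE for Irs2 (0.917). The sign of the Foxo1, Irs2, Klf10 and Txnip estimates turned under some alternatives. In 5 members, Cdkn1a, Eif4ebp1, Sesn1, Ddit4 and Gadd45a, both RP libraries lay above every Control-titled and below every Normal-titled library, an order that 2.12% of all tested genes had.

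Of the 163 other listed genes 5 were higher and 5 lower in RP against Normal (6.13%, beside 2.50% of all tested genes). The lower ones were Eda2r (log2 change -1.76), Fbxo32 (-1.51), the forkhead factor Foxk1 (-0.99), Bnip3 (-0.74) and Bnip3l (-0.69). The higher ones were Grb14 (1.36), Sirt3 (0.99), the glucose transporter gene Slc2a4 (0.75), the phosphatase gene Inppl1 (0.71) and Ccng1 (0.69). All 10 calls were lost without RP 1, with adjusted p from 0.114 to 0.369. Trim63, in contrast to Fbxo32, overlapped with the Normal-titled libraries (log2 change -0.35 ± 0.226 SE, adjusted p = 0.467).

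**Figure D4:**
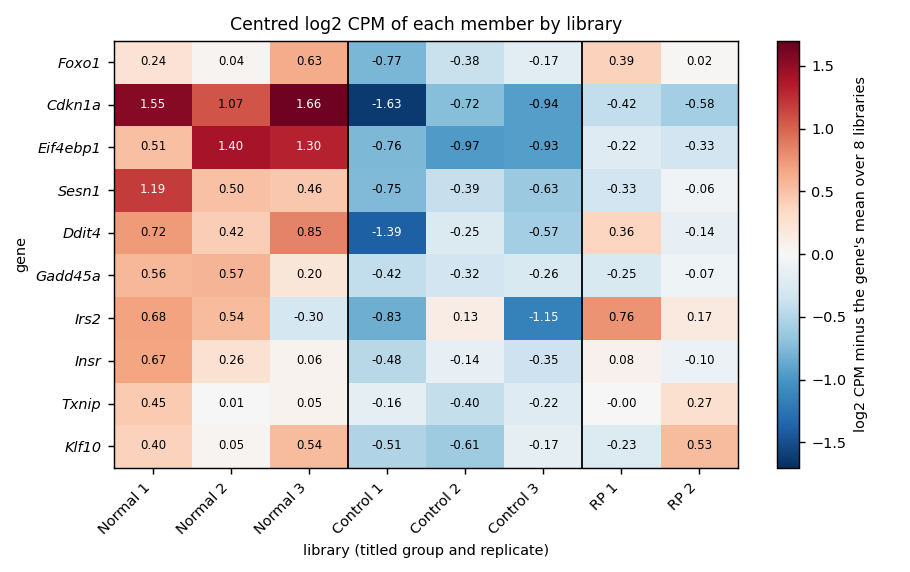
Log2 CPM of each of the 10 genes (rows) in each of the 8 libraries (columns), minus the mean of that gene over the libraries, with red above and blue below that mean and the value printed in each cell. Control-titled cells are below 0 except Irs2 in Control 2 (0.13), and in the RP columns Cdkn1a is below its mean (-0.42 and -0.58) while Foxo1 is above it (0.39 and 0.02).

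The members did not rank the libraries of a group alike. Within the Normal-titled group, Normal 3 was highest for Foxo1, Cdkn1a, Ddit4 and Klf10, Normal 1 for Sesn1, Irs2, Insr and Txnip, and Normal 2 for Eif4ebp1 and Gadd45a. The highest library was 1.29 to 2.01 times the lowest within the Normal-titled group (median over the 10 genes 1.50), 1.12 to 2.54 times within the Control-titled group (median 1.32) and 1.07 to 1.70 times within RP (median 1.21). Control 1 was the lowest Control-titled library for 6 of the 10.

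Likeness of profiles was measured as the root mean square difference of centred log2 CPM over the 8 libraries. The profiles were not scaled, so the measure also grows with the size of a gene's changes. The closest members were Gadd45a and Insr (0.189) and the furthest Cdkn1a and Txnip (1.03). Among 5517 genes with a mean of at least 20 CPM, those most like Foxo1 were Pkp4 (0.159), Optn (0.184), Tubb4b (0.189), Fam166a (0.203) and Tbc1d1 (0.205). Those most like Cdkn1a were Ctla2a (0.430), Apod (0.440), Tmem252 (0.457), Egln3 (0.471) and Fbxo32 (0.500). The nearest gene to Cdkn1a was further from it than any of the 5 neighbours of Foxo1 was from Foxo1, and Cdkn1a also had larger changes.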

How the data were processed

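RNA of 8 gastrocnemius libraries was prepared with the Lexogen QuantSeq 3' kit from 500 ng of RNA, per the labels. The authors deposited raw read counts per gene symbol, 1 table for each library, which are not normalized. Bowtie2, edgeR and mm10 are named in the submitters' processing notes. The versions, the counting tool, the strand counted and the annotation are not given in the sources used here, so a gene and an overlapping antisense gene cannot be told apart (Gadd45a, Irs2, Txnip and Klf10 overlap another RefSeq gene). Each table had 23282 rows. No library had a count for 5430 of them, and filterByExpr kept 13174.

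Counts were tested with edgeR 4.0.16 in R 4.3.3 (2-sided quasi-likelihood test on all 8 libraries together, TMM scaling, Benjamini-Hochberg over the 13174 genes, threshold 0.05), after the code had been tested on simulated data. Levels are CPM computed from the deposited counts and TMM-scaled library sizes. SE is the size of the log2 change over the square root of F. There were 18 alternatives. They were normalization by RLE or by upper quartile, either no low-count filter or one at a mean of 5 CPM, DESeq2 1.42.0, limma-voom (limma 3.58.1), a fit of only the 2 groups compared, a replicate block, removal of haemoglobin genes and Rn45s, Hba-a1 as a covariate, and each library left out in turn.

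The 10 genes, the lists and the alternatives were chosen with earlier results of these data known. Named with values were the 10 genes, 26 fixed relatives and, per list and comparison, up to 3 genes past the threshold with the largest change. A gene that this rule names is not reported here. Profile likeness named the 5 nearest genes with a mean of at least 20 CPM for Foxo1 and Cdkn1a. Promoter sequences are RefSeq's. Figures were drawn with matplotlib 3.10.9. Library totals of 9528011 to 12333767 put 27 to 18487 counts behind each value of a member.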

Additional observations from a re-analysis of the deposited data

How the results depend on the processing

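Each library of a group weighs heavily at n = 2 or 3, and depth limits Irs2 most. Leaving out 1 library at a time gave 608 (without Control 3) to 1858 (without Normal 1) genes and 5 to 8 of the 10 members for Control against Normal, 8 (without Control 2) to 72 (without Normal 3) genes and 0 members for RP against Control, and 57 (without RP 1) to 670 (without Normal 1) genes and 1 to 4 members for RP against Normal. With the Hba-a1 covariate, Control against Normal gave 382 genes, 287 of them shared with the 1376, and 4 members, and RP against Normal 104 genes and 1 member. RP against Control gave 204 genes and 1 member with no filter, 121 and 1 with only the 2 groups fitted, 112 genes with DESeq2, 11 with a mean CPM of at least 5 and 10 with limma-voom. RP against Normal gave 718 genes with no filter, 663 with DESeq2 and 100 with only the 2 groups fitted.

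With the replicate block the 3 comparisons, in the order used above, gave 1218, 17 and 262 genes and 8, 0 and 2 members. Deviations of same-numbered libraries from their group means correlated at -0.068 to 0.080 over 7 pairs, and not every library correlated best with its own number. Deviations within a group sum to 0 for each gene, so with so few libraries these correlations are not free of each other. They cannot settle whether the numbers pair the libraries.

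Of the log2 changes of single genes under the alternatives, 1206 kept direction and call, 171 lost the call, 12 gained it and 32 changed sign, all of the last in estimates that had not passed. For Control against Normal the sign turned for Foxo4 with upper-quartile normalization (0.024), limma-voom (0.013), the replicate block (0.0081) and the Hba-a1 covariate (0.45), and for Arrdc4 likewise (0.0096, 0.011, 0.0008 and 0.69). The covariate also turned Cdkn1b (0.12), Akt1 (0.22), Akt2 (0.22), Mdm2 (0.0099) and Trp53 (-0.23). Leaving out 1 library gave -0.19 to 0.18 for Foxo4, -0.23 to 0.20 for Arrdc4, -0.23 to 0.014 for Cdkn1b, -0.11 to 0.24 for Gadd45b, -0.088 to 0.31 for Sgk1 and -0.087 to 0.29 for Trp53. For RP against Normal the block turned Foxo1 (0.050) and Irs2 (-0.12), and the covariate Irs2 (-0.54) and Klf10 (0.20). Leaving out 1 library gave -0.31 to 0.087 for Foxo1, -0.21 to 0.40 for Irs2, -0.57 to 0.19 for Klf10 and -0.19 to 0.11 for Txnip. The cause was not tested.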

Other observations

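The ratio of each of the 9 other genes to Foxo1 in the same library was set against the Normal-titled libraries, a reading chosen after the values had been seen. In the RP libraries the log2 ratio of Cdkn1a to Foxo1 was -1.28 and -1.07. In the Normal-titled libraries it was 0.55 to 0.83 and in the Control-titled ones -1.33 to -0.82. By this ratio the RP libraries sat among the Control-titled ones although their Foxo1 level overlapped the Normal-titled one. The ratio of Eif4ebp1 to Foxo1 was 0.53 and 0.79 in RP, 1.42 to 2.50 in Normal-titled and 0.38 to 1.15 in Control-titled libraries. For Ddit4 it was 1.21 and 1.07 in RP, 1.45 to 1.71 in Normal-titled and 0.62 to 1.37 in Control-titled libraries. These 3 ratios were lower in both RP libraries than in every Normal-titled library, and the other 6 overlapped. Cdkn1a, Eif4ebp1 and Ddit4 were themselves wholly below the Normal-titled libraries in RP, so this count is not separate support. No share over the ratios of other genes to Foxo1 was computed. A 2-sided exact permutation test of 2 against 3 libraries has 10 splits and cannot go below p = 0.1, which these 3 had (0.3 after adjustment over 9 ratios). The ratios rest on the same Foxo1 value in each library and are not independent of each other.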
